A study of Homo sapiens with 2 samples.

Results

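The actin cytoskeleton genes described here are the cytoplasmic actin genes ACTB and ACTG1, the genes of the actin-binding proteins PFN1, TMSB4X, TMSB10, CFL1, TPM1 and TAGLN2, the myosin light chain gene MYL6 and the transcription factor gene SRF. They were taken by gene symbol, as abundant actins and their partners, and 10 of 16424 listed genes matched. The choice was made with earlier results of these data known. ACTB is also the gene of beta-actin, a protein stained in the study's blots. Cap analysis of gene expression (CAGE) was run on PLC/PRF/5 cells, an established line from a human liver tumour. There was 1 library of non-treated cells (0 µg/ml) and 1 library of cells kept with 3 µg/ml M2BPGi for 6 h, both of the same line, with no genetic change named for either. M2BPGi is a glycoform of Mac-2 binding protein that the lectin WFA recognises, known as a serum marker of liver fibrosis. The comparison addresses which transcripts differ in level when M2BPGi is added.

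In CAGE each tag marks the capped 5′ end of 1 RNA molecule, so tags per 1000000 tags (CPM) were set side by side between genes without division by transcript length. The libraries held 24040209 tags (non-treated) and 24862941 tags (M2BPGi-treated). Ratios are given as log2 of treated over non-treated after adding 1 CPM to each value, which understates the ratio of low genes. The 95% Clopper-Pearson intervals are for the tag ratio without this pseudocount, and they cover counting error only. Each condition has a single library, so differences have no replicate check, and the conditions were not put to a test. The RNA came from whole dishes of cells, so fewer cells that express a gene and less RNA per cell cannot be told apart.

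Actin cycles between single molecules (monomers) and filaments, which give a cell its shape and its means to move. Profilin and the beta-thymosins bind monomers, cofilin cuts filaments, tropomyosins and transgelins lie along filaments, and non-muscle myosin pulls on them. Monomeric actin also holds the coactivators MKL1 and MKL2 away from SRF, a transcription factor that binds the CArG box near the start of many cytoskeleton genes, and in the liver the same filaments line the bile canaliculi of hepatocytes.

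The cell type label was checked against marker genes. Of 10 hepatocyte and hepatoma markers, 10 had more than 1 CPM in both libraries, and their summed level was 3585 CPM without and 3545 CPM with M2BPGi. KRT18, a keratin of simple epithelia, was the most abundant of them with 1249.8 and 1592 CPM, and without it the sums were 2335 and 1953 CPM. These sums still hold another keratin gene, KRT8, with 835 and 811 CPM. SERPINA1, the gene of alpha-1 antitrypsin, had 671 and 455 CPM, the lowest log2 ratio of these markers (-0.56). The fetal liver protein gene AFP had 695 and 566 CPM, while ALB, the gene of serum albumin, had only 8.82 and 7.04 CPM. Also low were APOB (15.6 and 11.1 CPM), APOA1 (4.37 and 4.63 CPM) and TTR (3.62 and 2.49 CPM). Of the 10 hepatocyte and hepatoma markers, 3 were higher and 7 lower in M2BPGi-treated cells, beside 42.9% of all genes higher. Of 9 smooth muscle and myofibroblast markers, whose cells are rich in actin, 3 are listed, with a summed level of 7.49 and 8.32 CPM, and the most abundant was COL3A1 in non-treated cells (4.53 CPM, and 3.42 CPM with M2BPGi) and TAGLN in M2BPGi-treated cells (4.14 CPM, and 2.29 CPM without it). Of 5 leukocyte markers, 2 are listed, namely LYZ with 32.1 and 29.2 CPM and the defining marker PTPRC at 0 in both libraries, which allows up to 0.125 and 0.121 CPM. Of 4 endothelial markers, 0 are listed.

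All 10 actin cytoskeleton genes were higher in M2BPGi-treated than in non-treated cells, where 42.9% of the 13724 genes tested (mean of both libraries of at least 1 CPM) were higher. Among the 221 genes with at least 500 CPM and transcripts below 2000 nt, which include 7 of the 10, 75.1% were higher. The log2 ratios of the 10 genes ran from 0.09 for SRF to 0.60 for TAGLN2, with a median of 0.35, and the median over all genes tested was -0.05. A ratio of at least 1.2-fold was reached by 7 of the 10, beside 13% of all genes. TAGLN2 alone was at least 1.5-fold higher, beside 1.6% of all genes, and 0 were at least 1.5-fold lower, beside 4.04%. For 9 of the 10 genes the interval lay wholly above 0, beside 22.8% of all genes. The exception was SRF, which had the fewest tags of them (423 and 468). Intervals narrow as tags rise, so such shares, here and below, also depend on level. A share at matched level was not computed.

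**Figure D1:**
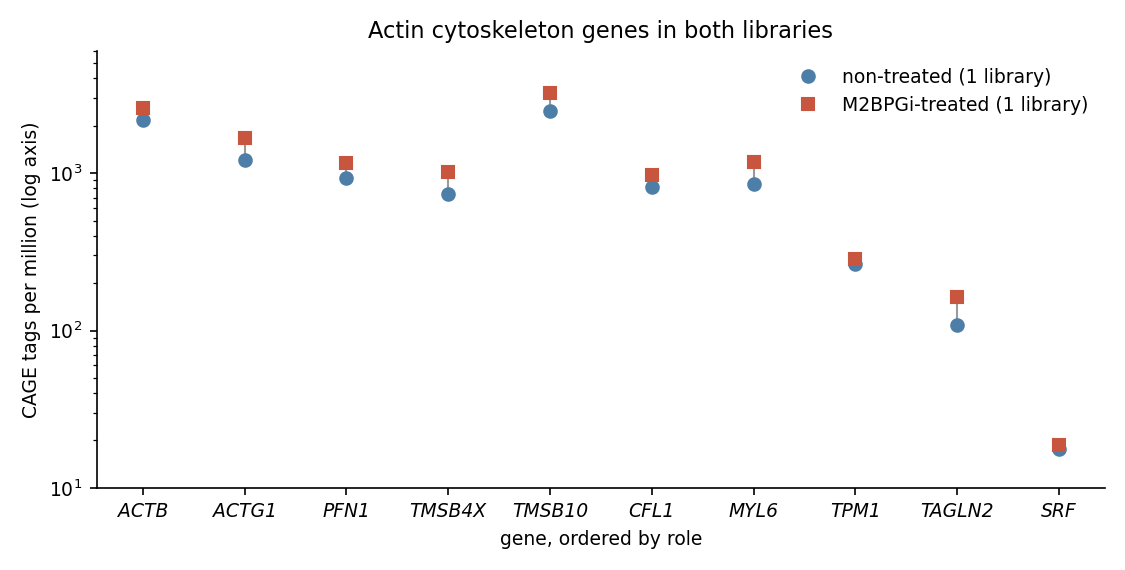
CPM of each actin cytoskeleton gene on a log axis, in the non-treated library (circles) and the M2BPGi-treated library (squares), 1 library each. The square lies above the circle for all 10 genes, which span levels from 17.6 CPM for SRF to 3211 CPM for TMSB10.

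Together the 10 genes took 0.959% of the tags of non-treated cells (interval 0.956% to 0.963%) and 1.23% of those of M2BPGi-treated cells (interval 1.225% to 1.234%). Their summed level was 9595 CPM and 12295 CPM, a gain of 2700.4 CPM and a ratio of 1.28. TMSB10 was the most abundant of them in both libraries and SRF the least. Without TMSB10 the sums were 7109.6 and 9084 CPM, again a ratio of 1.28. Of the 10 genes, 3 were among the 100 most abundant genes of non-treated cells and 5 among those of M2BPGi-treated cells.

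**Figure D2:**
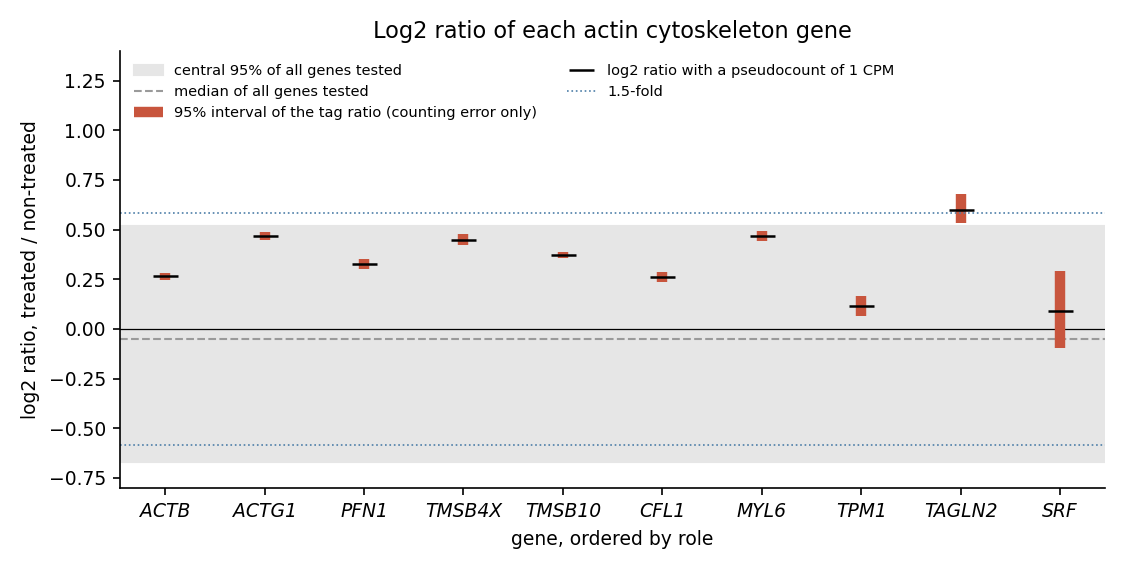
Log2 ratio (treated over non-treated) of each actin cytoskeleton gene (black dashes) with the 95% interval of its tag ratio (red bars, counting error only). The grey band holds the central 95% of all genes tested (-0.67 to 0.52), the dashed line is their median (-0.05) and the dotted lines mark 1.5-fold; TAGLN2 lies above the band and the bar of SRF crosses 0.

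ACTB (ENSG00000075624, chr7:5527147-5563784, minus strand; positions here and below are those of GENCODE v29 on GRCh38) encodes beta-actin, which is enriched at the leading edge of moving cells. It had 2167 CPM without and 2604 CPM with M2BPGi, a log2 ratio of 0.26 (interval 0.25 to 0.28). ACTG1 (ENSG00000184009, chr17:81509971-81523847, minus strand) encodes gamma-actin, the other actin of non-muscle cells, which differs from beta-actin in a few residues at the amino end. Its level was 1209 CPM and 1672 CPM, with a log2 ratio of 0.47 (interval 0.45 to 0.49). The interval of ACTG1 lay above that of ACTB. The ratio of ACTB to ACTG1 tags was therefore lower in M2BPGi-treated cells, 1.56 (interval 1.54 to 1.58) against 1.79 (interval 1.77 to 1.82). Of the 4 muscle actin genes searched (ACTA1, ACTA2, ACTC1 and ACTG2), 0 are listed.

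The sequence before the start of ACTG1 is shown because it holds a CArG box, the motif that SRF binds. RefSeq promoter windows of 250 bases before and 50 bases after a start were at hand for 9 of the 10 genes, without ACTB, and each was searched for the CArG box, TATAAA and GGGCGG on both strands. A CArG box was in 2 of their 12 windows, that of ACTG1 and 1 of the 2 windows of SRF, beside 1.29% of all 35116 windows. The stretch upstream of ACTG1 on the minus strand, chr17:81512884-81512959 in RefSeq on GRCh38.p14, is shown up to the CArG box, in capitals. The box ends 84 bases before the RefSeq start, and its last 8 bases lie in an exon of a longer form in GENCODE v29.
ACTG1: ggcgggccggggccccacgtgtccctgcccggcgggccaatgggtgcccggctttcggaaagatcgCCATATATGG
A match is a description of the sequence, and binding of SRF was not measured. Over all genes tested, the 130 with a CArG box in a window had a median log2 ratio of 0.02 and 53.1% of them were higher, and the 8729 with a window and no CArG box had a median of -0.05 with 43.1% higher.

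Of the genes that bind monomers, PFN1 (ENSG00000108518, chr17:4945652-4949061, minus strand) encodes profilin, which loads actin with ATP and feeds it to growing filament ends. Its level was 932 CPM without and 1168 CPM with M2BPGi, a log2 ratio of 0.33 (interval 0.30 to 0.35). The beta-thymosin genes encode very small proteins that keep actin in a monomer pool. TMSB10 (ENSG00000034510, chr2:84905625-84906675, plus strand) had 2485 CPM and 3211 CPM, a log2 ratio of 0.37 (interval 0.35 to 0.39). TMSB4X (ENSG00000205542, chrX:12975108-12977227, plus strand) had 739.9 CPM and 1011 CPM, a log2 ratio of 0.45 (interval 0.42 to 0.48). The beta-thymosins were thus unequal in level, with TMSB10 at 3.36 times the tags of TMSB4X in non-treated cells (interval 3.30 to 3.42) and 3.18 times in M2BPGi-treated cells (interval 3.13 to 3.22). Their summed level was 3225 CPM and 4222 CPM, close to that of both actin genes together, 3376 CPM and 4276 CPM.

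The starts of the paralogs TMSB10 and TMSB4X can be compared, since each held GGGCGG (or CCGCCC, the same motif on the other strand), a motif that Sp1 binds, but in unlike number. GGGCGG was in 10 of the 12 windows of these genes, and in 45.0% of all windows. The stretches end where the GENCODE v29 transcripts begin, at chr2:84905536-84905624 for TMSB10 and chrX:12974990-12975107 for TMSB4X, both on the plus strand of GRCh38.p14, with the motif in capitals.
TMSB10: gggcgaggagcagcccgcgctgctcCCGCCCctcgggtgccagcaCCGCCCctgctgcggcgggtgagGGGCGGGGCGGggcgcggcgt
TMSB4X: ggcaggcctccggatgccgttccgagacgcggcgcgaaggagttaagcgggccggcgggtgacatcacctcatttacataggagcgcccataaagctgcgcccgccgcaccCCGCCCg
The 89 bases of TMSB10 hold 4 matches, a pair of which overlap, and the 118 bases of TMSB4X hold 1. TATAAA was in neither window.

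Other genes for monomer-binding proteins, from lists made by role, were also higher, 5 of 5, beside 42.9% of all genes, with a median log2 ratio of 0.12. The interval lay above 0 for 2 of them, beside 22.8% of all genes, and held 0 for CAP2, TWF1 and TWF2 (the last 2 named after their values were seen). PFN2, a profilin best known from neurons, had 66.7 CPM without and 104 CPM with M2BPGi, a log2 ratio of 0.64 (interval 0.55 to 0.73), and was the list's gene past 1.5-fold. CAP2, a cyclase-associated protein gene, was the lowest with 34.6 and 35.2 CPM, with an interval of -0.11 to 0.16. PFN2 was thus well below the level of PFN1 in either library, while its log2 ratio was above that of PFN1.

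CFL1 (ENSG00000172757, chr11:65823022-65862026, minus strand) encodes cofilin, which cuts ageing filaments and frees monomers. It had 816 CPM without and 978 CPM with M2BPGi, a log2 ratio of 0.26 (interval 0.23 to 0.29). The ratio of CFL1 to ACTB tags was 0.376 in both libraries (intervals 0.370 to 0.383 and 0.370 to 0.381), so CFL1 and ACTB kept the same proportion within counting error. That of PFN1 to ACTB was 0.430 (interval 0.423 to 0.437) and 0.449 (interval 0.442 to 0.455). Of 12 other genes tested for filament severing and turnover, 6 were higher and 6 lower, with a median log2 ratio of 0.01, beside 42.9% of all genes higher. After both libraries were shifted to a median log2 ratio of 0, 7 were higher, beside 50% of all genes. DSTN, the gene of destrin and a relative of cofilin, was the highest of those with a mean of at least 10 CPM, with 269 and 336 CPM (log2 ratio 0.32, interval 0.27 to 0.37). SSH3, a phosphatase gene of the slingshot family, was the lowest with 41.1 and 34.8 CPM (log2 ratio -0.23, interval -0.37 to -0.11).

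MYL6 (ENSG00000092841, chr12:56158161-56163496, plus strand) encodes the essential light chain of non-muscle myosin. It had 856 CPM without and 1183 CPM with M2BPGi, a log2 ratio of 0.47 (interval 0.44 to 0.49). MYL6B, the gene of a related light chain, overlaps MYL6 by 1487 bases on the same strand and had 847 and 1173 CPM, that is 98.9% and 99.2% of the level of MYL6. The values of this pair are therefore uncertain, since tags of 1 gene may have been given to both. The regulatory light chain genes MYL9, MYL12A and MYL12B had log2 ratios of 0.45, 0.29 and 0.36. The heavy chain gene MYH10 had 60.7 CPM and 45.9 CPM, the lowest log2 ratio of its list (-0.40, interval -0.52 to -0.29), and MYH9 had 199 CPM and 186 CPM (-0.09, interval -0.15 to -0.04). MYH14 had 10.1 CPM and 9.17 CPM, and its interval of -0.41 to 0.13 held 0. Of the 12 genes tested for myosin and its regulators, 6 were higher and 6 lower, beside 42.9% of all genes higher. MYL9, MYL12A, MYL12B, MYH9 and MYH14 were named after their values were seen.

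TPM1 (ENSG00000140416, chr15:63042632-63071915, plus strand) encodes a tropomyosin, a coiled coil that runs along the filament and shields it from cofilin. Its level was 263 CPM without and 285 CPM with M2BPGi, a log2 ratio of 0.11 (interval 0.07 to 0.16), close to the median of 0.10 of the 1149 genes within 2-fold of its mean level. The other 3 tropomyosin genes were higher as well, beside 42.9% of all genes. TPM4 was the highest of them with 299.8 and 387 CPM (0.37, interval 0.33 to 0.41) and TPM2 the lowest with 311 and 333 CPM (0.10, interval 0.05 to 0.14).

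TAGLN2 (ENSG00000158710, chr1:159918107-159925732, minus strand) encodes transgelin-2, a filament-bundling protein found in many cells outside smooth muscle. It had 108 CPM without and 164 CPM with M2BPGi, a ratio of 1.52 and a log2 ratio of 0.60 (interval 0.53 to 0.68). The interval reaches below 1.5-fold, and with a pseudocount of 5 CPM the log2 ratio was 0.58 and not past that threshold. Of all genes tested, 1.39% had a log2 ratio at least as high as TAGLN2. The 2152 genes within 2-fold of its mean level had a median log2 ratio of 0.05. The smooth muscle transgelin gene TAGLN was low, with 2.29 and 4.14 CPM (interval of the log2 ratio 0.37 to 1.36), and it was named after its values were seen. Of the transgelin, calponin and caldesmon list, 4 of 4 genes tested were higher, beside 42.9% of all genes, from CNN2 with 128 and 154 CPM (0.26) to CALD1 with 95.7 and 106 CPM (0.14) among those with a mean of at least 10 CPM.

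SRF (ENSG00000112658, chr6:43171299-43181507, plus strand), the transcription factor, had 17.6 CPM without and 18.8 CPM with M2BPGi, a log2 ratio of 0.09. Its interval of -0.10 to 0.29 held 0, so a difference was not detectable at this depth. SRF is itself a known target of SRF. The stretch before its RefSeq start, chr6:43171169-43171268 on the plus strand of GRCh38.p14, holds 2 CArG boxes, in capitals.
SRF: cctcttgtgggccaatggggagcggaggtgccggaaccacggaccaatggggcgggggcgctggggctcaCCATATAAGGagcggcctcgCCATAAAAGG
The same window of SRF was the 1 of the 12 searched with TATAAA, on the other strand and after the start, beside 11.5% of all windows, and the other window of SRF held none of the motifs searched. Of 5 genes tested for SRF coactivators, 2 were higher and 3 lower, near the 42.9% of all genes. ELK3, of the ternary complex factors, had 16.2 and 21.0 CPM (0.35, interval 0.18 to 0.57). MKL2 had 99.3 and 81.3 CPM (-0.28, interval -0.37 to -0.20), and MKL1, named after its values were seen, had 20.8 and 19.1 CPM (-0.11, interval -0.30 to 0.07).

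The other actin pathway genes, 104 tested in lists made by role, were less uniform than the 10 actin cytoskeleton genes. Of these, 64 were higher and 40 lower, beside 42.9% of all genes higher, and their median log2 ratio was 0.07. After the shift to a median of 0, 70 were higher, beside the 50% of all genes that the shift itself sets. At least 1.5-fold higher were 2 (PFN2 and TAGLN), beside 1.6% of all genes, and at least 1.5-fold lower was 1, beside 4.04%. The latter was WAS, a nucleation factor gene best known from blood cells, with 8.69 and 4.46 CPM (-0.83, interval -1.31 to -0.62). TAGLN and WAS were below a mean of 10 CPM, and WAS, too, was named after its values were seen.

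**Figure D3:**
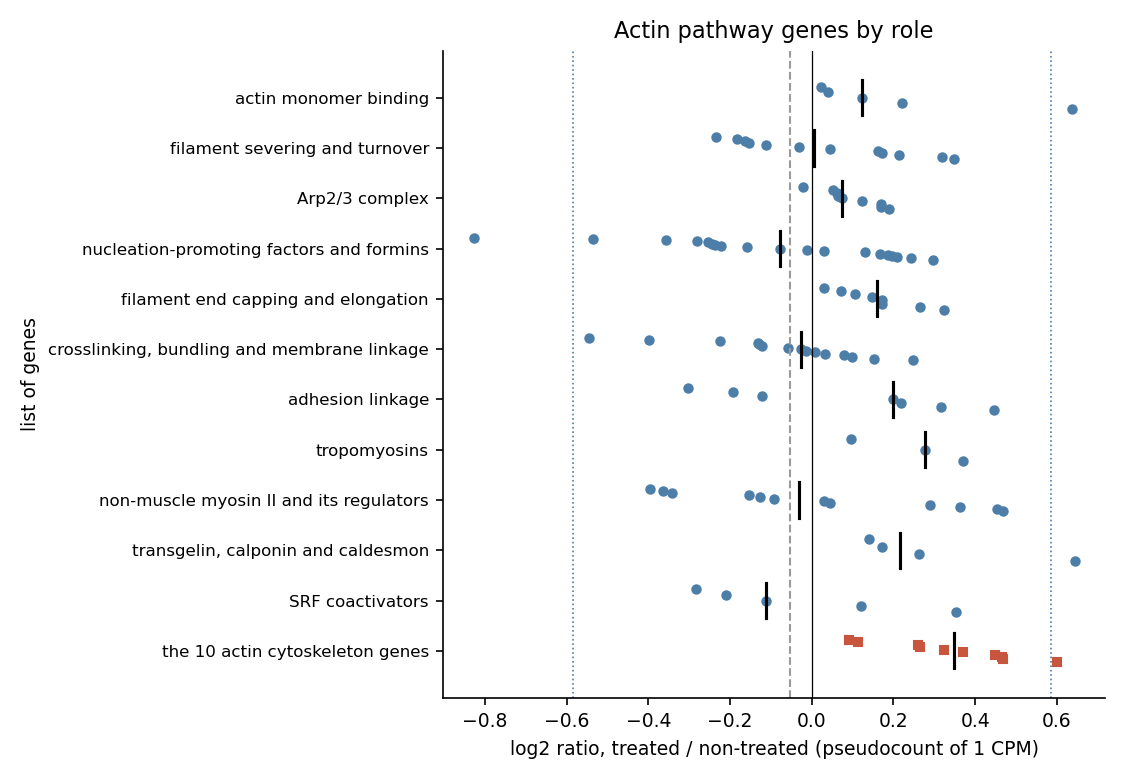
Log2 ratio of each gene tested in the lists of actin pathway genes named on the axis (circles) and of the 10 actin cytoskeleton genes (squares), with the median of each list as a vertical bar. The dashed line is the median of all genes tested (-0.05) and the dotted lines mark 1.5-fold; the squares all lie above 0 and the formin, crosslinking and myosin lists spread to both sides.

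Of the genes of the Arp2/3 complex, which starts filaments as branches, 8 of 9 were higher, beside 42.9% of all genes, from ARPC3 with 338 and 386 CPM (0.19) to ARPC5L with 109 and 108 CPM (-0.02), and ARPC5L turned positive after the shift to a median of 0. Of 19 nucleation-promoting factor and formin genes, 8 were higher and 11 lower, a share near the 42.9% of all genes. CYFIP1, of the WAVE complex, had 44.9 and 53.3 CPM (0.24, interval 0.13 to 0.37), and DIAPH1, a formin gene, had 151 and 104 CPM (-0.54, interval -0.61 to -0.47). Of the capping and elongation genes, 8 of 8 were higher, from CAPZB with 103 and 129.6 CPM (0.32) to TMOD3 with 69.2 and 70.7 CPM (0.03, interval -0.07 to 0.13), beside 42.9% of all genes. The interval lay above 0 for 5 of these 8 genes and for 6 of the 9 Arp2/3 genes, beside 22.8% of all genes. Level differs between these lists and all genes. From 100 to below 500 CPM, where most Arp2/3 genes and several capping and elongation genes lie, 61.5% of all genes were higher.

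Of 15 genes tested that link filaments to each other and to the membrane, 6 were higher and 9 lower, near the share of all genes (42.9% higher). After the shift to a median of 0, 8 were higher, near the 50% of all genes. VIL1, the gene of the microvillus protein villin, had 163 and 194 CPM (0.25, interval 0.19 to 0.31), and LIMA1, a filament crosslinker gene, had 48.4 and 32.8 CPM (-0.55, interval -0.69 to -0.43). Of 7 adhesion genes, 4 were higher and 3 lower, beside 42.9% of all genes higher. PARVA, of the parvin family, had 11.8 and 16.4 CPM (0.45, interval 0.26 to 0.70), and VCL, the gene of vinculin, had 173 and 139.8 CPM (-0.30, interval -0.37 to -0.24).

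The actin cytoskeleton genes are abundant, and abundant genes were more often higher with M2BPGi. Of the 272 genes with a mean of at least 500 CPM, 69.1% were higher, with a median log2 ratio of 0.19, and 7 of the 10 genes (ACTB, ACTG1, PFN1, CFL1, TMSB4X, TMSB10 and MYL6) were among them. Of the 7540 genes from 10 to below 100 CPM, where SRF lies, 41.7% were higher. The 10 genes also have short transcripts, except for SRF, whose median transcript in GENCODE v29 has 4202 nt. That of TMSB10 has 496 nt and that of ACTG1 1960 nt. Of the 221 genes with at least 500 CPM and transcripts below 2000 nt, 75.1% were higher, with a median of 0.21, and 42.5% were at least 1.2-fold higher. The log2 ratios of ACTB and CFL1 (0.26) were near this median, while those of ACTG1, MYL6 and TMSB4X were further above it. The part of level and length in these log2 ratios was not tested.

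**Figure D4:**
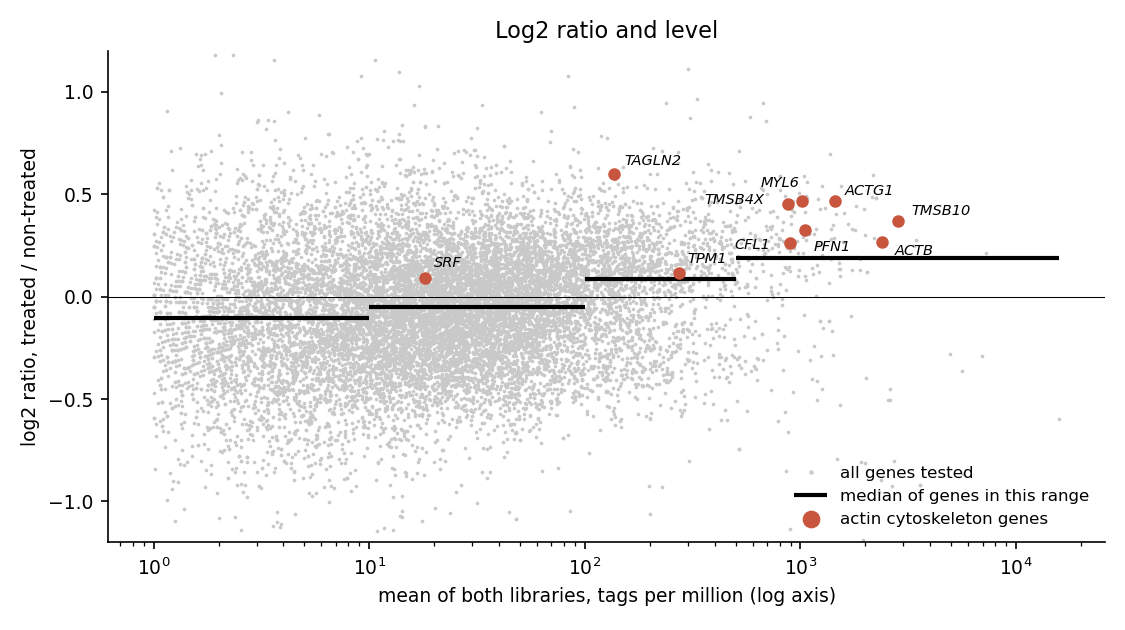
Log2 ratio against the mean CPM of both libraries (log axis) for all genes tested (grey), with the 10 actin cytoskeleton genes in red and the median of each range of level as a black bar. The bars go from -0.11 at 1 to 10 CPM to 0.19 from 500 CPM, and 54 genes lie outside the vertical axis.

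The other actin pathway genes were also counted by length. Of those with transcripts below 1000 nt, 6 of 6 were higher, beside 54.9% of all genes of that length, and from 1000 to below 2000 nt, 22 were higher and 3 lower, beside 50.2% higher. From 2000 to below 4000 nt, 27 were higher and 18 lower, beside 38.8% higher. From 4000 nt, 8 were higher and 19 lower, near the 30.5% of all genes of that length, and the median log2 ratio was -0.13 for both. Across 103 of these genes the Spearman rank correlation of log2 ratio and length was -0.55, and across the 13271 genes tested that have a length it was -0.19. These are descriptions across genes of the same pair of libraries, and genes are not independent replicates.

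**Figure D5:**
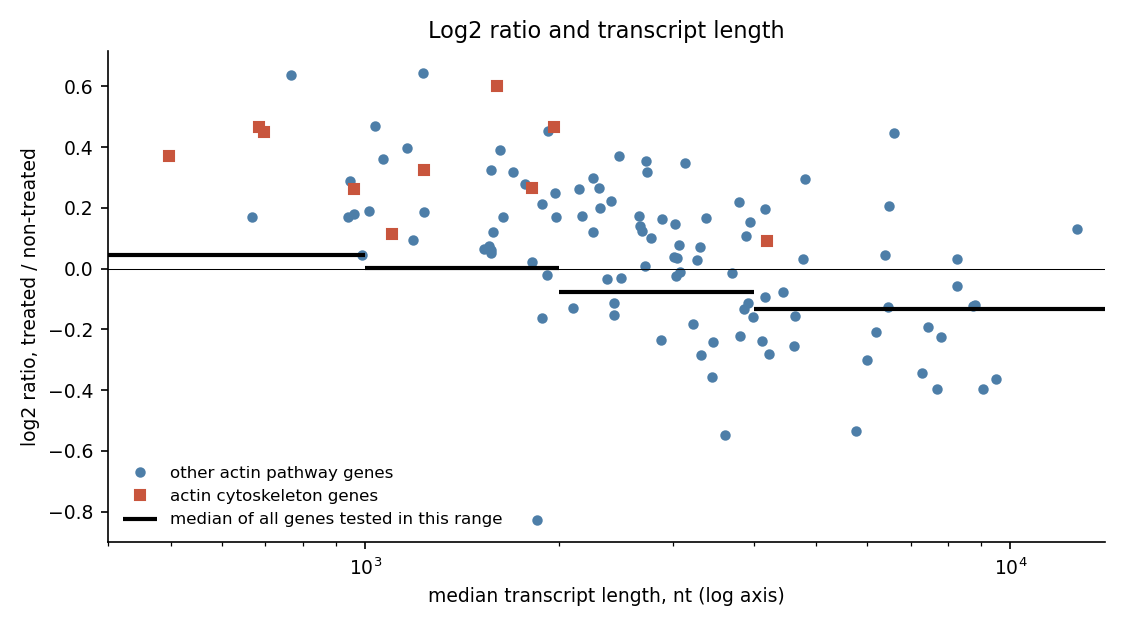
Log2 ratio against the median transcript length in GENCODE v29 (log axis) for the other actin pathway genes (circles) and the 10 actin cytoskeleton genes (squares). Black bars give the median of all genes tested in each range of length, from 0.04 below 1000 nt to -0.13 from 4000 nt.

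ACTB is in common use as a reference gene, and it was set beside 15 other such genes. With M2BPGi 9 of these were higher and 6 lower, beside 42.9% of all genes higher, the median log2 ratio being 0.14. With the pseudocount, 13 had a lower log2 ratio than ACTB. HPRT1 was 1 of these only through the pseudocount, since ACTB over HPRT1 was 90.6 in non-treated and 90.3 in M2BPGi-treated cells. GAPDH, of glycolysis, had 1695 and 1936 CPM (0.19, interval 0.17 to 0.21). TFRC, the transferrin receptor gene, was the lowest with 515 and 338 CPM (-0.60, interval -0.65 to -0.57). The level of ACTB over that of GAPDH was 1.28 in non-treated and 1.35 in M2BPGi-treated cells, and over that of TFRC it was 4.21 and 7.70. These are RNA levels, and actin protein was not measured in these libraries.

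Several of the genes have pseudogene copies, and how tags that match more than 1 place were treated is not given in the sources used here. By symbol, 17 copies of 8 genes are listed, 8 of them at 0 in both libraries, with a summed level of 67.1 and 96.5 CPM. TAGLN2P1 was the most abundant copy, with 23.0 and 38.5 CPM, or 21.3% and 23.4% of the level of TAGLN2, so the value of TAGLN2 is uncertain. TMSB4XP8 had 17.9 and 26.8 CPM, which is 2.42% and 2.65% of TMSB4X. ACTBP2 had 12.2 and 12.6 CPM, MYL6P2 had 7.40 and 12.6 CPM, CFL1P1 had 2.95 and 3.10 CPM, PFN1P1 had 2.75 and 2.29 CPM, and TMSB10P1 had 0.75 and 0.52 CPM. The copy of ACTG1 was at 0 in both libraries. With the tags of the copies added, 10 of 10 genes were higher, and the median log2 ratio was 0.35 as before.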

How the data were processed

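CAGE libraries of PLC/PRF/5 cells were compared, 1 non-treated and 1 M2BPGi-treated, with groups taken from the labels. Ribosomal tags had been removed by the authors before mapping, and CPM of each gene with 2 decimals were deposited. The submitters' processing notes name BWA, HISAT2 and hg19. The paper's methods name a mouse genome, while the identifiers are human. The assignment of tags to genes is not given in the sources used here.

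From the deposited CPM, the number of tags was read back: 100% of values above 0 were whole tags within the rounding of 0.005 CPM, which is 0.120 and 0.124 of a tag. Of values up to 20 tags, 87.6% (non-treated) and 94.1% (M2BPGi-treated) were within 0.1 of a whole tag, short of the 95% set for a count test, so the planned count tests and TMM factors were not run. That tolerance is narrower than the rounding, so the shortfall does not show that the values are not counts. The numbers of tags served for depth, for shares of tags, for ratios of tags between genes of a library and for 95% counting intervals. In these, 3 tags are the upper limit for a count of 0. Log2 ratios used a pseudocount of 1 CPM over genes with a mean of at least 1 CPM, and "past 1.5-fold" is on this scale. Steps were tested on simulated data.

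The members and lists were chosen with earlier results of these data known. Genes named are the 10 members, the highest and the lowest log2 ratio with a mean of at least 10 CPM in each of 13 role lists, every such gene past 1.5-fold, GAPDH and the highest and lowest reference gene, and the most abundant copy of each member. Some items that this rule selects are not reported here. Cell type markers come from lists of their own, and other names outside the rule were picked with the values in view. Alternatives tried were other pseudocounts, filters, fold thresholds and scalings, and added pseudogene copies. Positions and transcript lengths were matched by identifier to GENCODE 29, and 96.7% of genes tested had a length. Promoters are from RefSeq (GRCh38.p14). Proteins were not compared. Python 3.11.15, numpy 2.4.6, pandas 2.3.3, scipy 1.17.1 and matplotlib 3.10.9 were used.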

Additional observations from a re-analysis of the deposited data

How the results depend on the processing

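Leaving out a library was not possible with a single one in each condition. No paired analysis was possible because there are no pairs beyond these 2 libraries. The planned TMM factors and count tests on tags read back were not run, since too few low values were within 0.1 of a whole tag, a tolerance narrower than the rounding. In place of the factors, a trimmed mean of log2 ratios was added after seeing the data. Under 7 alternatives, 10 of 10 actin cytoskeleton genes stayed higher, with log2 ratios from 0.08 to 0.66. Of these 70 values, 54 stayed within counting error and 16 did not, all of the latter higher under a shift of the libraries. The median of the 10 genes, 0.35, was 0.40 with the libraries shifted to a median log2 ratio of 0 and 0.41 with the trimmed mean. Without MYL6 (added after seeing the data) it was 0.33. The number of these genes at least 1.5-fold higher, 1, was 0 with a pseudocount of 5 CPM, and it was 7 at 1.2-fold and 0 at 2-fold. Of the other actin pathway genes, 2 were at least 1.5-fold higher and 1 lower. With a mean of at least 10 CPM these were 1 and 0, with at least 100 CPM 0 and 0, and with a pseudocount of 5 CPM 1 and 0. With at least 100 CPM, 33 of them were higher and 8 lower. Of all genes tested, 61.5% were higher from 100 to below 500 CPM and 69.1% from 500 CPM. Over all genes, 219 were at least 1.5-fold higher and 555 lower. These numbers were 336 and 856 with a pseudocount of 0.1 CPM, 91 and 164 with 5 CPM, 135 and 223 with a mean of at least 10 CPM, 39 and 37 with at least 100 CPM, 1787 and 3323 at 1.2-fold, and 33 and 59 at 2-fold. Stricter filters test fewer genes, and ratios of low genes are smaller under a larger pseudocount. Of the genes past 1.5-fold, 28.3% were higher, against 42.0% after the shift to a median of 0 and 45.3% with the trimmed mean. Depth bounds the counting error, and no value here bounds the variation between cultures.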

Other observations

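The other filament system built from small abundant subunits, the microtubules, was looked at after its values were seen. Of 15 tubulin genes tested, 11 were higher with M2BPGi and 4 lower, beside 42.9% of all genes higher, and their median log2 ratio was 0.14. After both libraries were shifted to a median log2 ratio of 0, 12 were higher, beside 50% of all genes. From 100 to below 500 CPM 5 of 5 were higher, beside 61.5% of all genes at that level, and from 10 to below 100 CPM 3 of 6, beside 41.7%. Their summed level was 1838 CPM without and 2049.6 CPM with M2BPGi. TUBA1B, the most abundant, had 809 and 893 CPM, a log2 ratio of 0.14. TUBE1, the gene of epsilon-tubulin, a centriole protein, was the gene of this family past 1.5-fold, with 14.6 and 26.9 CPM, a log2 ratio of 0.83.

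A gene that overlaps an actin cytoskeleton gene on the other strand was listed in 6 cases, at 0.0903% to 4.41% of the level of the gene it overlaps. Those named here were chosen after their values were seen. SMARCC2, opposite MYL6, had 37.8 and 40.0 CPM, which is 4.41% and 3.38% of the level of MYL6, and the gene opposite TMSB10, TRABD2A, had 2.66 and 2.90 CPM.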
